A study of Parhyale hawaiensis with 42 samples.

Results

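miR-184 in the amphipod crustacean *Parhyale hawaiensis* is represented by 4 precursors, each with a 5p and a 3p mature sequence. The 8 sequences were taken by name, as every mature microRNA called miR-184, and make up 8 of the 349 mature microRNAs that were quantified. All 4 precursors carry the name of the genomic contig LQNS02000211.1 (Phaw 5.0 assembly) and are distinguished by their prediction numbers, 1795, 1950, 1952 and 1954, which are used below as locus names. Start and end positions within the contig were not analysed here. The 3p sequences are 22 nt long and the 5p sequences 23 nt. The same contig holds the miR-7 precursor (number 1858) and a precursor without a family name (number 1913), both numbered between the first and the second miR-184 locus.

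microRNAs are short RNAs that are cut from hairpin precursors. One arm of the hairpin is usually kept in the silencing complex, where it pairs with target mRNAs through its seed, and the other arm is usually degraded. miR-184 is shared by insects and vertebrates, and in *Drosophila* it acts in the female germline and the early embryo, with its main product cut from the 3p arm. Where a genome holds several copies with the same mature sequence, reads of that sequence cannot be assigned to one locus.

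Small RNAs of whole embryos were sequenced at 7 time-points with 4 libraries each, 28 in all. The embryos came from a wild-type laboratory strain kept in artificial sea water, were staged by hand and pooled, and received no treatment. The time-points are named by their stages as the labels give them, S1-4, S6, S8-11, S14, S17, S21-23 and S24-30. The main text of the publication has S5-6 in place of S6 and S7-11 in place of S8-11. As whole embryos were used, a lower level per cell and a smaller number of cells that express a microRNA cannot be told apart.

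Depth ranged from 112244 to 1846449 mature microRNA counts per library (median 474499), with the shallowest library at S14 and the deepest at S1-4. In each of the 42 pairs of replicates the counts differed by more than sampling noise (chi-squared over its degrees of freedom 7.79 to 228). The sources do not say whether replicates came from separate cultures, so p-values measure only the spread between these samples. As a check of the stage labels, miR-1-3p, miR-133-3p (both known from muscle of other animals) and miR-124-3p (known from neurons) were highest at S24-30, at means of 1124, 259 and 76.8 normalised counts. let-7c-5p, which other animals express late, stood at 246 normalised counts at S24-30 but also at 216 at S1-4. S1-4 replicate 2 held 1296 normalised counts of miR-1-3p, above the mean of S24-30, against 34.9 to 119 in the other S1-4 libraries. Without it, the change of miR-184-3p between S1-4 and S24-30 described below kept its direction, at a log2 fold change of -0.60 (edgeR adjusted p = 0.0245). S21-23 replicate 1 held 430 normalised counts of miR-1-3p, against 120 to 163 in the others of its time-point. S24-30 replicate 1 held 716, against 1148 to 1352. Without S21-23 replicate 1, miR-184-3p changed by -0.96 from S17 to S21-23 (-0.71 with all libraries) and by 0.94 from S21-23 to S24-30 (0.80 with all). Without S24-30 replicate 1, this last step was 0.92.

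Nearly all miR-184 reads came from the 3p arm, and they were spread evenly over the 4 loci. Summed over the 28 libraries, the 3p arm held 351929 counts at locus 1795, 351509 at 1950, 352602 at 1952 and 352390 at 1954. Within a library the highest copy exceeded the lowest by a factor of 1.0009 to 1.015, and the variation among the 4 copies was below that of independent counts in 28 of 28 libraries (chi-squared over its degrees of freedom 0.0010 to 0.339). None of the 112 values of the 3p copies was a whole number at a tolerance of 0.001. The highest copy was locus 1954 in 12 libraries, 1952 in 11, 1950 in 4 and 1795 in 1. Since reads that match several copies were divided among them, values of a single copy are uncertain, and the 3p copies were followed as their sum.

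The summed miR-184-3p had its highest mean at S6 and its lowest at S21-23, and at S24-30 it stood between S21-23 and S1-4. At S1-4 the 4 libraries held 56248, 55654, 60751 and 72014 normalised counts, that is counts divided by the size factor of the library (mean 61167 ± 7581, SD, n = 4). At S6 they held 75403, 49017, 119174 and 86937 (82633 ± 29075). The S6 libraries were the most widely spread of the time-course, with replicate 3 above every other library and replicate 2 below all of S1-4.

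At S8-11 the values were 50767, 53698, 58534 and 64232 (56808 ± 5895, SD, n = 4). At S14 they were 36831, 51515, 43574 and 41930 (43463 ± 6088). These time-points overlap at a single S14 library. At S17 the libraries held 23683, 29299, 28281 and 40159 normalised counts (30356 ± 6977). At S21-23 they held 20027, 18213, 15702 and 16460 (17600 ± 1929), below every library of the other 6 time-points. At S24-30 they held 27145, 42057, 38205 and 36029 (35859 ± 6322), above all libraries of S21-23 and below all of S1-4. How many other microRNAs separate between time-points in this way was not tested.

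**Figure D1:**
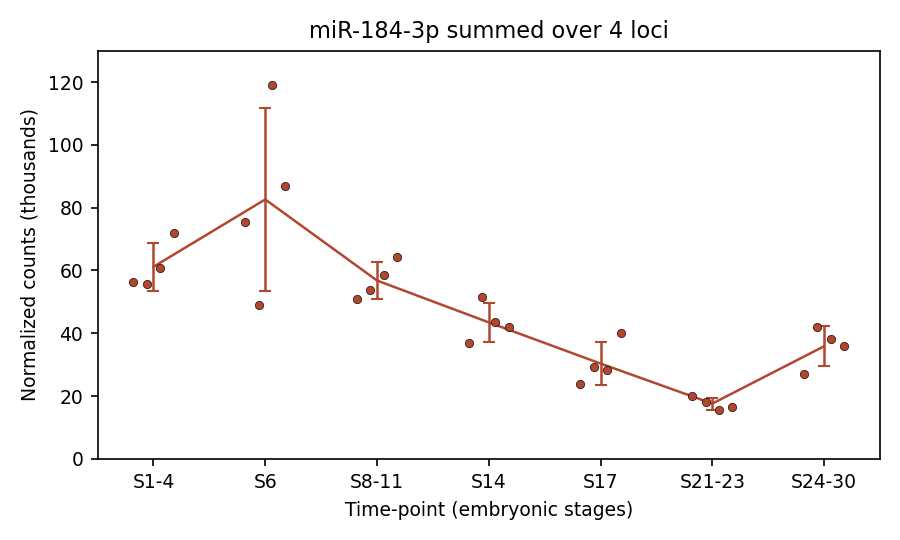
Normalised counts of miR-184-3p summed over 4 loci (vertical axis, each unit 1000 counts) at each time-point (horizontal axis). Points are libraries, the line joins means of 4 libraries, and bars are ± 1 SD. The mean is 82633 at S6, 17600 at S21-23 and 35859 at S24-30.

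No change of the summed miR-184-3p reached the thresholds of the study. The tests were edgeR quasi-likelihood tests on 231 microRNAs scaled by TMM. A change was called where its log2 size reached 1.5 and its Benjamini-Hochberg adjusted p was 0.001 or lower. miR-184-3p was called in 0 of the 7 comparisons, and by DESeq2 also in 0. In 5 of the 7 its unadjusted edgeR p was under 0.05. Under TMM its largest log2 fold change in size was -0.88, from S1-4 to S24-30, which is short of 1.5 whatever its p. A change below that limit is never called, so a change that was not called may still be present. In simulated data with the real spread between libraries, these thresholds missed part of the changed microRNAs. Recovery of a change as small as that of miR-184-3p was not tested. Of all tested microRNAs, 1.3% were called from S1-4 to S6, 15.6% from S6 to S8-11, 7.36% from S8-11 to S14, 0.866% from S14 to S17, 6.93% from S17 to S21-23, 11.7% from S21-23 to S24-30 and 56.3% from S1-4 to S24-30.

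The log2 fold change was below 0 at each step from S6 to S21-23. From S8-11 to S14 the log2 fold change was -0.56 (SE 0.21, edgeR adjusted p = 0.0406). With DESeq2 size factors this step was -0.39 (edgeR adjusted p = 0.143), and fits under TMM without 1 library gave adjusted p = 0.0490 to 0.156. From S14 to S17 the log2 fold change was -0.46 (SE 0.21, adjusted p = 0.185) and from S17 to S21-23 -0.71 (SE 0.21, adjusted p = 0.00951). From S21-23 to S24-30 it was 0.80 (SE 0.21, adjusted p = 0.00397). Between the ends of the time-course it was -0.88 (SE 0.21, adjusted p = 0.000651), which met the limit on p but not that on fold change. The limit on p was no longer met with DESeq2 size factors (adjusted p = 0.00141), with no filter on low counts (0.00933), with 1 copy in place of the sum (0.0144), or in 7 of the 8 edgeR fits that left out 1 library of either time-point (0.00178 to 0.0486). Without S1-4 replicate 3 the value was -0.57, and without replicate 4 it was -0.50. The 2 earliest steps, 0.38 from S1-4 to S6 (adjusted p = 0.271) and -0.33 from S6 to S8-11 (adjusted p = 0.207), were within the spread of replicates under TMM. Without S6 replicate 3, the value from S6 to S8-11 under TMM was 0.03. With DESeq2 size factors and all libraries, the step from S6 to S8-11 was -0.54 (edgeR adjusted p = 0.0304).

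The direction of 3 of these values depended on the scaling. With total counts as the scale, the log2 fold change of miR-184-3p was 1.22 from S6 to S8-11, 0.0041 from S8-11 to S14 and 1.502 from S1-4 to S24-30, and the last was called (edgeR adjusted p = 6.25e-09). The median tested microRNA moved by 3.25 between the ends under that scaling, against 0.96 under TMM. Relative to this median, miR-184-3p stood at -1.84 under TMM and between -1.84 and -1.75 under the 4 scalings tried. It was not extreme, since 83 of the 231 tested microRNAs (35.9%) had a lower log2 fold change under TMM. Relative to the median of its own comparison miR-184-3p stood at -0.61 from S8-11 to S14, at -0.71 from S17 to S21-23 and at 0.88 from S21-23 to S24-30. In these 3 comparisons 39.0%, 27.7% and 71.9% of tested microRNAs had a lower value. Each copy fitted as its own feature gave nearly the same value as the next, with all 4 at -0.67 between the ends and from 0.90 to 0.91 for the last step.

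**Figure D2:**
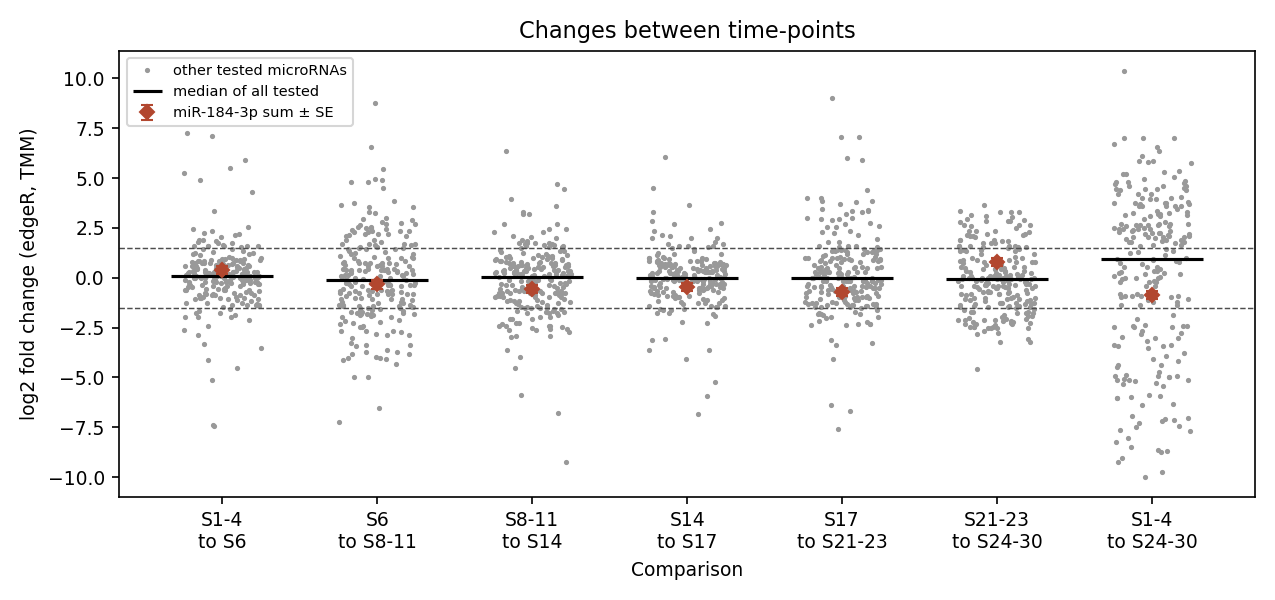
log2 fold change (vertical axis, edgeR with TMM scaling) of 231 tested microRNAs in 7 comparisons of time-points (horizontal axis). Grey points are single microRNAs, black lines their median, red diamonds the summed miR-184-3p ± SE, and dashed lines mark 1.5 in either direction. miR-184-3p lies inside the dashed lines in all 7 comparisons, and below the median by 1.84 from S1-4 to S24-30, where 35.9% of tested microRNAs lie lower.

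As a share of all microRNA counts, miR-184 followed another course than its normalised level. Of all counts it took 5.33% ± 0.61 (SD, n = 4) at S1-4, 5.86% ± 1.51 at S6 and 13.7% ± 0.64 at S8-11. The share was 13.7% ± 0.68 at S14, then 10.9% ± 1.94 at S17 and 8.74% ± 1.67 at S21-23, and reached 15.1% ± 1.43 at S24-30. The share was higher in all 4 libraries of S8-11 (12.9% to 14.3%) than in any of S6 (4.91% to 8.12%). It was also higher in all 4 libraries of S24-30 (13.2% to 16.5%) than in any of S21-23 (7.41% to 11.2%) or of S1-4 (4.68% to 5.91%). These 3 comparisons gave p = 0.0286 in a two-sided exact permutation test, the smallest that 4 against 4 libraries allow. Their adjusted p over the 7 comparisons was 0.0667, so none passed 0.05. How many other microRNAs separate by share in this way was not tested. With total counts as the scale, the median tested microRNA moved by 1.29 (log2) from S6 to S8-11, against 1.22 for miR-184-3p. From S21-23 to S24-30 the median moved by -0.085, against 0.79 for miR-184-3p. Between the ends the median moved by 3.25, against 1.502 for miR-184-3p.

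The direction of the share depended on whether miR-92, the family that dominates the early libraries, was in the denominator. miR-92 took 81.4% to 86.9% of counts in the 8 libraries of S1-4 and S6 and 2.65% to 7.42% in those of S24-30. Among counts outside miR-92, miR-184 took 33.4% at S1-4, 37.6% at S6, 34.0% at S8-11, 26.9% at S14 and 17.7% at S17. S21-23 had 10.4% and S24-30 15.7%. On this denominator the change between the ends was -17.6 percentage points, against 9.77 points among all counts. The steps from S8-11 to S14 (-7.09 points), S14 to S17 (-9.25), S17 to S21-23 (-7.29) and S21-23 to S24-30 (5.35), and the change between the ends, each gave p = 0.0286 (exact permutation test) and an adjusted p of 0.04. This p is the same smallest possible value as among all counts. Its adjusted value is lower here only because more of the 7 comparisons reached it.

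**Figure D3:**
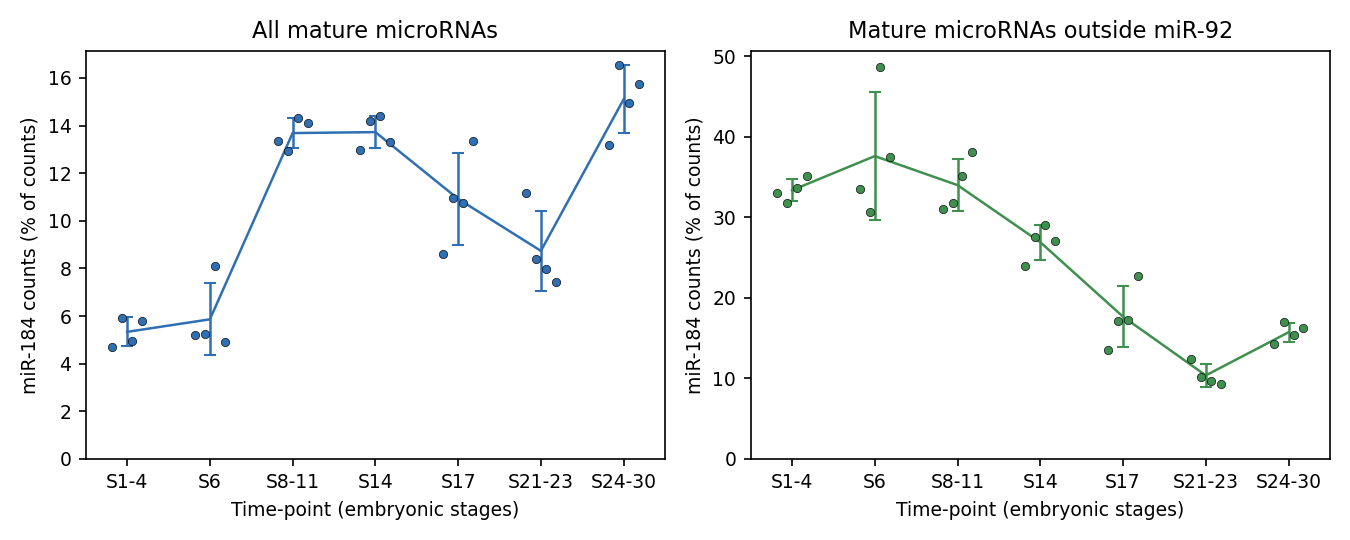
Share of miR-184 (vertical axes, percent of counts) at each time-point (horizontal axes), among all mature microRNAs on the left and among those outside miR-92 on the right. Points are libraries, lines join means of 4 libraries and bars are ± 1 SD. The mean is 5.33% at S1-4 and 15.1% at S24-30 on the left, and 33.4% and 15.7% on the right.

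Summing the copies changed where miR-184 stands among the microRNAs. With all copies of the same name and arm summed, 303 features remained, and miR-184-3p was 2nd after miR-92-3p at S1-4, S6, S8-11, S14 and S17, 4th at S21-23 and 1st at S24-30. At S17 it was above the 3rd, miR-10-5p, in 2 of 4 libraries (mean log2 ratio 0.08 ± 0.63, SD), within the spread of replicates. A single copy ranked between 3rd and 6th at S1-4 and between 7th and 10th at S24-30. At S24-30 the mean of miR-184-3p was 35859 normalised counts, that of miR-10-5p, whose gene lies among the Hox genes in other arthropods, 34111 ± 4679 (SD, n = 4) and that of miR-9-5p, known from the nervous system of other animals, 32073 ± 4921. It was above miR-10-5p in 2 of 4 libraries there, with a mean log2 ratio of 0.06 ± 0.17 (SD), so the order of these 2 was within the spread of replicates. It was above miR-9-5p in 4 of 4 libraries, by 0.16 ± 0.08. At S21-23 it was below both in 4 of 4 libraries.

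Ratios within a library need no scaling, and were taken between miR-184-3p and 3 other families with 3 copies each. Against miR-92-3p, the log2 ratio of summed counts rose from -3.98 ± 0.20 (SD, n = 4) at S1-4 to 2.08 ± 0.83 at S24-30, a difference of 6.06. Against miR-9-5p it fell from 2.44 ± 0.28 to 0.16 ± 0.08, a difference of -2.28, and of -5.47 when the copy with the most counts stood for each family in place of the sum. Against miR-306-5p it fell from 6.28 ± 0.05 to 5.19 ± 0.16, a difference of -1.09. The groups did not overlap in any of the 3, and each gave p = 0.0286 (two-sided exact permutation test), which was also the adjusted p over the 3 families. Of all tested microRNAs, 56.3% were called between these ends by edgeR, and the share that would separate in this way was not tested. These ratios also carry the changes of the comparators. Mean normalised counts went from 969761 to 8948 for miR-92-3p and from 11275 to 32073 for miR-9-5p.

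The courses of these ratios differed. The ratio to miR-92-3p was -2.11 at S8-11, -1.82 at S14 and -1.79 at S17, and moved most between S21-23 (-0.85 ± 0.68) and S24-30. The ratio to miR-9-5p was highest at S6 (3.83 ± 0.52) and lowest at S21-23 (-0.83 ± 0.38). The mean ratio to miR-306-5p stayed between 6.26 and 6.28 over the first 4 time-points and was 4.38 ± 0.36 at S21-23. Single libraries ranged more widely, from 5.61 to 6.76 at S6 and from 5.74 to 6.64 at S14. The level of miR-306-5p itself was far lower, at means of 484 to 1022 normalised counts over the 7 time-points.

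**Figure D4:**
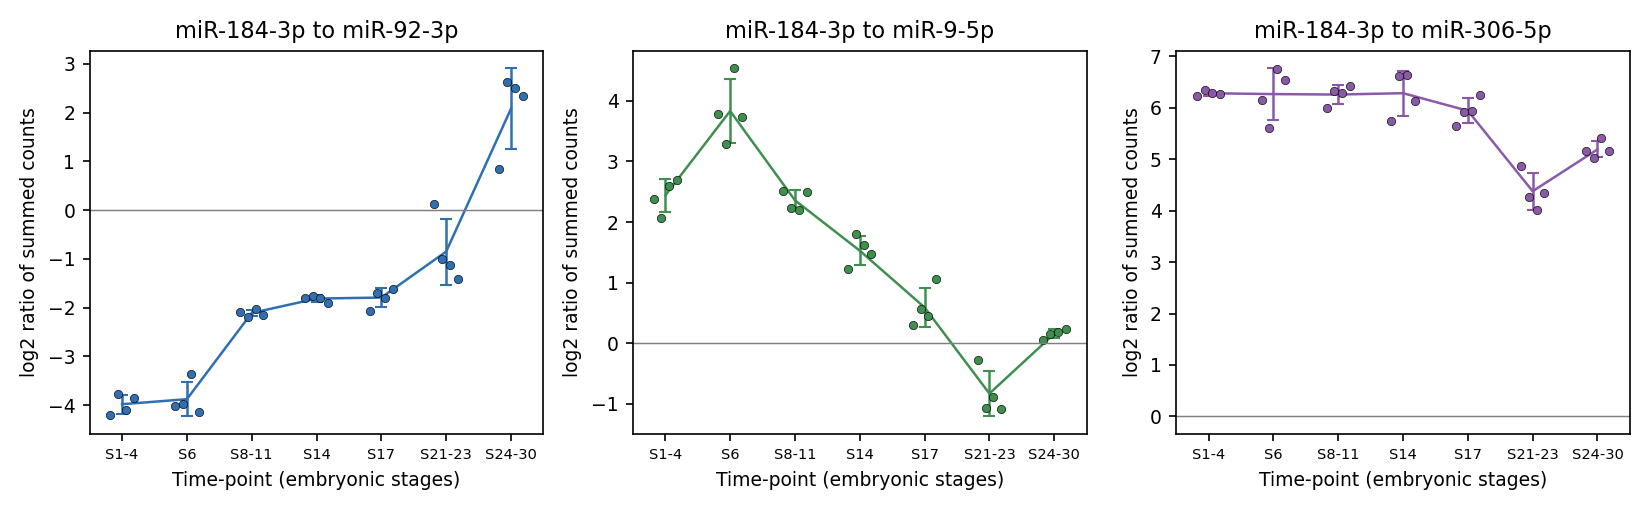
log2 ratio of the summed counts of miR-184-3p to those of miR-92-3p, miR-9-5p and miR-306-5p (vertical axes) at each time-point (horizontal axes). Points are libraries, lines join means of 4 libraries, bars are ± 1 SD, and the grey line marks equal counts. From S1-4 to S24-30 the ratio rises by 6.06 for miR-92-3p and falls by 2.28 for miR-9-5p and by 1.09 for miR-306-5p.

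The 5p arm was close to the limit of detection at every time-point. The 4 loci together held 161 counts of the 5p arm in the 28 libraries, against 1408431 of the 3p arm, which is 114 5p counts for every 1000000 3p counts (parts per 1000000, ppm). The highest library had 20 counts, 24 libraries had at least 1, and 4 had none. The 5p arm counted 10, 0, 0 and 1 in the S1-4 libraries and 2, 0, 3 and 0 at S6. It counted 5, 4, 15 and 10 at S8-11, and 3, 1, 6 and 7 at S14. All 4 libraries without 5p counts were thus among the 8 of the first 2 time-points, which were not shallow. In the deepest, S1-4 replicate 3, 0 of 91511 miR-184 counts allow up to 32.8 ppm.

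In the later time-points every library had 5p counts. They were 2, 3, 5 and 13 at S17, 15, 3, 6 and 4 at S21-23, and 5, 8, 20 and 10 at S24-30. Pooled over a time-point, the 5p arm made up 50.9 ppm of 3p counts at S1-4, 28.3 at S6, 122 at S8-11, 166 at S14 and 214 at S17. For S21-23 it was 214 and for S24-30 109. In single libraries, over all miR-184 counts, the 95% intervals (exact Clopper-Pearson) were wide, for example 188 to 965 ppm around 468 in S14 replicate 4 and 94.3 to 238 around 154 in S24-30 replicate 3. They cover counting error only. The 5p sum never reached a mean of 10 normalised counts (highest mean 8.2 ± 7.8, SD, n = 4, at S14) and so was not among the microRNAs tested.

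miR-184 was among the most 3p-biased precursors, and its rank depended on the measure. The mean over libraries of its log2 ratio of 5p to 3p counts, with 0.5 added to both, was -13.35, the lowest of 133 precursors with all same-named copies summed. The next was the unnamed LQNS02136402.1_14821 at -12.69. By counts pooled over the 28 libraries, where nothing is added, miR-184 was 5th, and LQNS02136402.1_14821 had 7.23 ppm (1 count of its 5p arm). The ratio of miR-184 was -15.09 at S1-4, -15.02 at S6, -13.06 at S8-11, -12.54 at S14 and -12.31 at S17. For S21-23 it was -12.20 and for S24-30 -13.22. It differed among time-points in the F-test of limma (adjusted p = 0.00312), as did 79.7% of the 153 precursors tested, among which only the miR-184 loci were summed. Between the ends the difference was 1.87 (SE 0.77, adjusted p = 0.0422), but with 5 added to the counts it was 0.15 (adjusted p = 0.745). With so few 5p counts, the size of these ratios depends on the number added, and with 0.5 added no single step between adjacent time-points passed 0.05 (adjusted p = 0.0598 to 0.993, limma). With 5 added, the step from S21-23 to S24-30 passed, at -1.29 (adjusted p = 0.0139), against -1.03 (adjusted p = 0.528) with 0.5 added.

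The 5p counts were uneven over the loci, unlike the 3p counts. Locus 1795 had 73 counts and locus 1950 had 67, whereas 1952 had 10 and 1954 had 11. In paired permutation tests over the 28 libraries (two-sided, log2 of counts + 0.5, 6 pairs), locus 1795 was above 1952 by 1.15 ± 1.54 (SD, adjusted p = 0.00222) and above 1954 by 1.14 ± 2.28 (adjusted p = 0.0293), and 1950 was above 1954 by 0.85 ± 1.71 (adjusted p = 0.0293). The last 2 depended on single time-points, since 1795 against 1954 no longer passed without S8-11, S14 or S17 (adjusted p = 0.0929 to 0.118, permutation tests), nor 1950 against 1954 without S8-11, S14, S17 or S21-23 (0.0728 to 0.126). The difference between 1950 and 1952, 0.86 ± 2.21, did not pass (adjusted p = 0.0735). Nor did the neighbours in order 1795 and 1950 (adjusted p = 0.768) and 1952 and 1954 (adjusted p = 1).

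Loci 1795 and 1950 did not appear in the same library. Locus 1795 had 5p counts and 1950 none in 13 libraries, 1950 had counts and 1795 none in 10, both had counts in 0 and neither in 5. The assignment did not follow the time-points, since S8-11 had 2 libraries of each kind, with 5 and 10 counts at 1795 and 4 and 15 at 1950. At low counts the same was seen in other families. Among 32 pairs of copies from other families with near-equal totals (within a factor of 1.5), one copy stood at 0 in 86 of 92 cases (93.5%) where the pair held 3 to 20 counts in a library, but in 2 of 564 (0.355%) where it held at least 100. For miR-184 pairs chosen in the same way, it was 24 of 24 and 0 of 168. The assignment of 5p counts to a locus, and with it the tests between loci, is uncertain. The 5p make-up by locus could be compared between the ends over 2 libraries of S1-4 and 4 of S24-30, and each of the 4 loci gave an adjusted p of 1 (two-sided exact permutation test, smallest possible p 0.133).

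**Figure D5:**
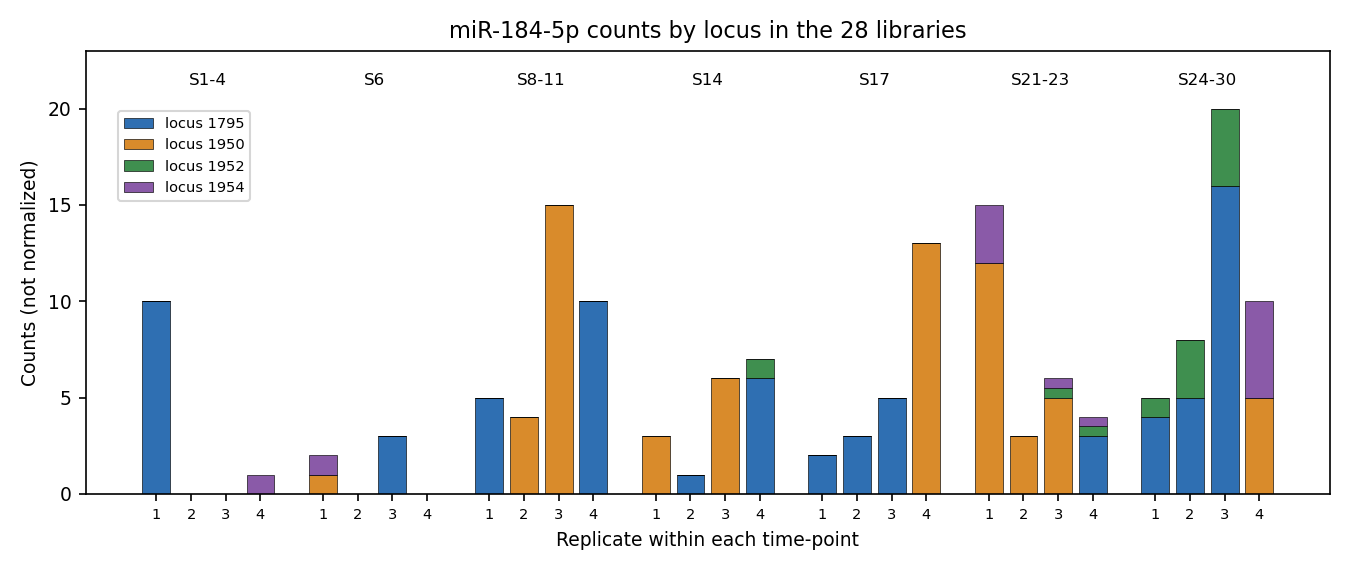
Counts of miR-184-5p (vertical axis, not normalised) in the 28 libraries (horizontal axis, replicates 1 to 4 within each time-point), stacked by locus. No bar holds both locus 1795 (blue) and locus 1950 (orange), and the highest bar, S24-30 replicate 3, has 20 counts.

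Other microRNAs followed similar courses over the 7 means. Likeness was taken as Pearson's r of log2(mean normalised counts + 0.5) over 7 time-points among 230 others, as a description only, since all points share libraries and scaling. Closest to the summed 3p arm were both arms of Dpu-Mir-10-P2 (5p, r = 0.934, and 3p, r = 0.928), the unnamed LQNS02278075.1_32304_3p (r = 0.927), Dpu-Mir-279-o6-3p (r = 0.918) and miR-190-3p (r = 0.918). Their amplitudes differed. Dpu-Mir-10-P2-5p went from 10826 normalised counts at S6 to 105 at S21-23, and Dpu-Mir-279-o6-3p from 934 at S8-11 to 363 at S21-23. Closest to the 5p sum were Dpu-Mir-9-o15-5p (r = 0.951), Dpu-Mir-1175-5p of locus 30947 (r = 0.9503), miR-275-5p (r = 0.942), miR-750-5p of locus 30950 (r = 0.898) and LQNS02278139.1_39523_5p (r = 0.879). The means of the 5p sum were only 2.3 to 8.2 normalised counts, so these r values rest on levels close to the limit of detection. miR-7-5p, on the same contig as miR-184, had another course, with 1691 ± 273 normalised counts (SD, n = 4) at S1-4, 1142 ± 66 at S17, 2641 ± 1527 at S21-23 and 11404 ± 2931 at S24-30.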

How the data were processed

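The deposited values are expected counts, which salmon (version 0.14.1) estimates per mature sequence, not normalised. Per the publication and the submitters' processing notes, reads were trimmed (cutadapt, version 1.18), cleared of tRNA and rRNA matches and aligned to mature microRNAs predicted on Phaw 5.0. The aligner, Bowtie (version 1.1.1), allowed 1 mismatch and reported every match, so salmon divided reads of identical copies among loci. The 14 mRNA files were not used.

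Expected counts were rounded to whole numbers after copies had been summed. Levels used DESeq2 size factors (version 1.42.0). A microRNA was tested with a mean of at least 10 normalised counts in at least 1 time-point, with edgeR (version 4.0.16) in 1 model of 7 groups without a replicate block. The 5p sum and single 5p loci were under that limit, so their planned tests gave no value. Without the limit, the 5p sum gave log2 fold changes of -0.75 to 1.69 (edgeR adjusted p = 0.245 to 1). Arm ratios used limma (version 3.58.1), and permutation tests SciPy (version 1.17.1). A count of 0 allows up to 3 counts, with intervals at 95%. PCR reads are not independent molecules. Scripts were tested on simulated data.

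Besides miR-184, the text names the 5 microRNAs most like each arm, the comparators miR-92-3p, miR-9-5p and miR-306-5p, and the stage checks. Others (miR-10-5p, miR-7-5p, the next most 3p-biased precursor) were named after their values were seen. Members, lists and tests were chosen with earlier results of these data known. The rankings with same-named copies summed and the pairs of low copies were added after seeing the data. Alternatives covered scaling, test, filter, added number, replicate block and single libraries.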

Additional observations from a re-analysis of the deposited data

Results flagged for a closer look

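In 56 groups of 4 libraries, 3 libraries lay far from the other 3 of their time-point by Dixon's criterion. Chance gives about 1 such group in 20, so 3 in 56 is about the number that chance alone would give. S6 replicate 3 held 8.12% of its counts in miR-184, against 4.91% to 5.23% in the other S6 libraries. S1-4 replicate 1 held 10 counts of the 5p arm, against 0 to 1 in the others. S24-30 replicate 1 had a log2 ratio of miR-184-3p to miR-92-3p of 0.84, against 2.34 to 2.63 in the others.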

How the results depend on the processing

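The limits of these values are depth, at most 20 counts of the 5p arm in a library, and the scaling, since miR-92 takes most early counts. The cause of the changes below was not tested beyond what each setting alters.

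Under total counts, the log2 fold change of miR-184-3p was 1.22 from S6 to S8-11, 0.0041 from S8-11 to S14 and 1.502 between the ends. Called microRNAs were then 69 in place of 36 from S6 to S8-11 (98.6% higher, against 50% under TMM) and 15 in place of 27 from S21-23 to S24-30, where no filter gave 17. Between the ends 80.2% of calls were higher under total counts and 53.8% under TMM. DESeq2 called 8 in place of 3 from S1-4 to S6, 8 in place of 2 from S14 to S17 and 25 in place of 16 from S17 to S21-23. With libraries of 2 time-points alone, 0 were called from S1-4 to S6 and from S21-23 to S24-30, and miR-184-3p stood at -0.40 against the median from S8-11 to S14. Without 4 early libraries (S1-4 replicates 1 and 2, S6 replicates 2 and 3), miR-184-3p gave -0.036 from S1-4 to S6, and 0 microRNAs were called there. No criterion for the choice of these 4 is given here. The S6 libraries left out had the highest (119174) and the lowest (49017) normalised miR-184-3p of that time-point. Outside miR-92, share changes were -3.61, -7.09, -9.25, -7.29 and 5.35 percentage points for the 5 steps from S6 on, and -17.6 between the ends. The arm ratio F-test of limma gave an adjusted p of 0.701 with locus 1795 alone, 0.0873 with 1952 alone and 0.0527 with 1954 alone.

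The 5p locus differences (log2) moved as follows. Leaving out S24-30, 1795 against 1950 was -0.0062 and 1950 against 1952 was 1.179, which passed, as did 0.32 with 5 added. 1795 against 1954 no longer passed without S8-11 (1.00), S14 (1.11) or S17 (0.97). 1950 against 1954 no longer passed without S8-11 (0.66), S14 (0.72), S17 (0.80) or S21-23 (0.74). 1952 against 1954 was 0.054 without S1-4 or S6 and 0.10 without S21-23.

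Leaving out 1 library at a time, the miR-184-3p change was -0.43 to 0.031 from S6 to S8-11, turned by S6 replicate 3, and -1.01 to -0.50 between the ends. Against the median it was -2.21 to -1.69 between the ends, lowest without S1-4 replicate 2, -0.63 to -0.36 from S8-11 to S14, -0.02 to 0.44 from S1-4 to S6 and -0.50 to 0.06 from S6 to S8-11. The share change was -0.23 to 0.84 points from S1-4 to S6 and -0.21 to 0.29 from S8-11 to S14. Ratio differences were 5.88 to 6.47 for miR-92-3p, -2.41 to -2.20 for miR-9-5p and -1.16 to -1.04 for miR-306-5p (with 1 copy of each family they were 6.85, -5.47 and -1.09), where 3 against 4 libraries cannot go below p = 0.0571 (exact). The share of locus 1795 changed by -2.5 to 24.2 points.

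Whether replicate numbers pair the samples was not settled. Same-numbered libraries correlated at -0.54 to 0.26 in their deviations, over 0.1 in 10 of 28 pairs. With 4 libraries to choose from, 11 of 28 correlated best with their own number. The correlations differed by step, at 0.02 to 0.26 from S14 to S17 and -0.54 to -0.13 from S21-23 to S24-30. With the replicate block, ratio differences remained 6.06, -2.28 and -1.09 at p = 0.125, the smallest that 4 pairs allow (exact permutation), and the locus 1795 share gave -10 points.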
